A study of Mus musculus with 7 samples.

Results

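The 300 regions of highest 5-methylcytosine (5mC) enrichment in cultured mouse hippocampal neurons were described here. 5mC was enriched with an antibody before sequencing (MeDIP-seq), and each library came with called intervals and, for every interval, a summit position with a height, a whole number in the deposited tracks that was read as the local pile-up of fragments. For each autosomal active region, which is an interval of the deposited track over all libraries together, the highest summit in each library was taken and averaged over libraries. The 300 regions with the highest averages were kept out of 26850 autosomal regions called in all 6 libraries, among 130882 autosomal active regions in all. Heights thus chose the regions, and the height of the set is given as a description without a test.

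The cells came from hippocampi of C57BL/6J embryos at stage E18.5 and were grown for 11 days in vitro, with cytosine arabinoside (AraC), which limits dividing cells, added at medium changes. One group of 3 libraries was left untreated, and the other, also of 3 libraries, was exposed to 55 mM KCl, which depolarises neurons, for 4 h. Both groups were of the same strain, and whether replicates stand for different cultures or animals is not in the labels. A pooled input library belongs to the study and was not analysed here. Enriched DNA gives no expression, so the labelled cell type could not be checked by marker genes. Markers are given below as gene positions only.

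5mC is written on cytosines that are followed by guanine (CpG) by the DNA methyltransferases Dnmt3a and Dnmt3b and copied at replication by Dnmt1. Most of the mammalian genome, gene bodies included, is methylated at its sparse CpGs, while CpG islands at active promoters mostly stay free of the mark. Promoters of germline genes are a known exception, being CpG-rich and methylated in somatic cells. An antibody against 5mC pulls down more of a fragment that carries more methylated CpGs, so height reflects CpG density together with the methylation of those CpGs, and also how many copies of a sequence add reads to 1 place.

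Of the 300 regions, called members from here on, 18 overlapped a RefSeq promoter window of GRCm38.p6, whose coordinates are those of mm10. Such a window covers 250 bases before and 50 after an annotated transcription start. The windows of the genes with germ-cell roles named below, with the one richest in CG at the second-highest region, are shown so that the number of CG around these starts can be seen. The mean summit lay inside the windows of Dazl, Tex12, Hsf5, Hormad1 and Taf7l2 and outside those of D1Pas1, Sycp2 and Tmem267. All are written 5′ to 3′ on the gene's strand, with CG in capitals. Dazl, needed for germ cell development, encodes a protein that binds messenger RNA (chr17:50293571-50293870, minus strand). Tex12 encodes a protein of the synaptonemal complex, which holds paired meiotic chromosomes together (chr9:50561219-50561518, minus strand). Hsf5 is a heat shock factor gene expressed in testis (chr11:87616914-87617213, plus strand). Hormad1 encodes a protein of the meiotic chromosome axis (chr3:95559427-95559726, plus strand). Taf7l2 is named as similar to the transcription factor subunit gene Taf7 (chr10:116113868-116114167, minus strand). D1Pas1 is a DEAD-box RNA helicase gene expressed in testis (chr1:186967166-186967465, plus strand). Tmem267 encodes a transmembrane protein (chr13:119488223-119488522, plus strand). Sycp2 encodes a lateral element of the synaptonemal complex (chr2:178407609-178407908, minus strand).
Dazl: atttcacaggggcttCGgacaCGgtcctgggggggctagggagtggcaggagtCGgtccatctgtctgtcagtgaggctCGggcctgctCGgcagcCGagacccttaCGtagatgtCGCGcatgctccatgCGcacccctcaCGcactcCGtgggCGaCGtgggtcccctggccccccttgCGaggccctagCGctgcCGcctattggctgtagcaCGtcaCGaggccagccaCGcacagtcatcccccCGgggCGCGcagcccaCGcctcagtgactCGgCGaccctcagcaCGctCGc
Tex12: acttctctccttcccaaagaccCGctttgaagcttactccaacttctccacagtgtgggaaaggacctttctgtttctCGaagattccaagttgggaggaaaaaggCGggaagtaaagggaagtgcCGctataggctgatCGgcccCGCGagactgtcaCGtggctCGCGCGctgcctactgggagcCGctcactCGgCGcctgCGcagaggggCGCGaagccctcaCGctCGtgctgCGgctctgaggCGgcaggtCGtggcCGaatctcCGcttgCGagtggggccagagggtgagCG
Hsf5: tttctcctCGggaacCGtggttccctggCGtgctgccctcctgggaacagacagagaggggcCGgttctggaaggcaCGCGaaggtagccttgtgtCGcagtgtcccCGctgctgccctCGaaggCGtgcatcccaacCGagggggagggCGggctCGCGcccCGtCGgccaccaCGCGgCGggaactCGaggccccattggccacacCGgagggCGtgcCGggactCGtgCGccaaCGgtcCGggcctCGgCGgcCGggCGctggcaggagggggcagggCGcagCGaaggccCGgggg
Hormad1: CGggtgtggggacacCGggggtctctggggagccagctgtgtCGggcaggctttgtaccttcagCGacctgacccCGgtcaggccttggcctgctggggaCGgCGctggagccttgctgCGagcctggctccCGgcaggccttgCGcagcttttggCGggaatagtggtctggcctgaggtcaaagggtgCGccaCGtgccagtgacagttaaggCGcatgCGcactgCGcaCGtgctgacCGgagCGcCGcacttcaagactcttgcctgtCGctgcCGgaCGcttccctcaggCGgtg
Taf7l2: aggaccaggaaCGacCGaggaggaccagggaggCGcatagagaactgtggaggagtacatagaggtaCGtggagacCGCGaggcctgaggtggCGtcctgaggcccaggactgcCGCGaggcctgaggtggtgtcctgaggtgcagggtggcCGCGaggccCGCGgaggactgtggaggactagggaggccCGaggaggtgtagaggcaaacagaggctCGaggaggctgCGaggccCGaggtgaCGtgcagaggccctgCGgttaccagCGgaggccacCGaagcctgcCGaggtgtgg
D1Pas1: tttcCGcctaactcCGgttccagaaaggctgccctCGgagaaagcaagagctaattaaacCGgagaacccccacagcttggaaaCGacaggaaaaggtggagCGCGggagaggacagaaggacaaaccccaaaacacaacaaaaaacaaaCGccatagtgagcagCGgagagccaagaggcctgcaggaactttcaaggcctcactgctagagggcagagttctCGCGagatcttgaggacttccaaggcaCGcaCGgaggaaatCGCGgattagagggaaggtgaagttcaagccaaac
Tmem267: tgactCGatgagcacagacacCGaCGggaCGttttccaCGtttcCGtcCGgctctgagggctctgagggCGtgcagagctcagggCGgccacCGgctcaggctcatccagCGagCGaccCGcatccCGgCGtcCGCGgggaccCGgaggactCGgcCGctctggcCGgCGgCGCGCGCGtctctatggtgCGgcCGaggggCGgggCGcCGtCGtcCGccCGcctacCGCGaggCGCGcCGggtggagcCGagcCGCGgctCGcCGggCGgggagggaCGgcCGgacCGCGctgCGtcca
Sycp2: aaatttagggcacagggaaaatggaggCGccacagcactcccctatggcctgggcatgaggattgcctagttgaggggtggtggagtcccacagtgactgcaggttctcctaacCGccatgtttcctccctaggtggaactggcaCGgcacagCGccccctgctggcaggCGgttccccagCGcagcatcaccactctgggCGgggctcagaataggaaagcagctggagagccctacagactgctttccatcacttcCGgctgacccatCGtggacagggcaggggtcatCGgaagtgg

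The Tmem267 window shown held 50 CG and a second window of that gene under the same member 22. That of Hsf5 held 34, Dazl 28, Tex12 26, Hormad1 24, Taf7l2 22, D1Pas1 15 and Sycp2 10, so germ-cell genes ranged from rich to poor in CG. In all, members overlapped 22 windows of 19 genes, with a median of 21 CG per window. All 31396 autosomal windows had a median of 7 CG, and the 449 windows overlapped by any region called in all 6 libraries a median of 10. The ratio of observed to expected CG was above 0.6 in 15 of the 22 windows (68.2%), in 30.1% of the windows under all regions called in 6 libraries and in 36.4% of all windows. CpG density is part of what the antibody enriches and thus is tied to height, so this difference is not independent of how the regions were chosen. The mean summit of these members lay a median of 160 bp from the nearest start, and 16 of 18 lay within 500 bp. They were picked for overlapping a window around a start, so this closeness follows largely from the choice.

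Letters of 3 motifs were searched on both strands of the windows. TGCCGC, the motif of the imprint-protecting factor ZFP57, occurred in 3 of the 22 windows (13.6%), against 12.9% of windows under any region called in 6 libraries and 11.6% of all windows. It was found in those of Dazl, Tex12 and Taf7l2. The E-box CACGTG, which equals its own reverse complement, occurred in 4 (18.2%) of 3 genes, since both Hormad1 windows hold it, against 14.5% and 7.14%, and TCCCGC, a core bound by E2F6 at germline promoters, in 5 (22.7%) of 4 genes against 83 of the 449 windows and 20.2%. The window of Tex12 held all of these. TGCCGC and TCCCGC end in the same letters and were counted separately. These are matches of letters only, and CG-rich windows hold more of the motifs that contain CG.

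Heights ran from 346 at the highest region to 92.2 at the lowest of the 300, with a median of 109, against a median of 24.2 over all autosomal regions called in 6 libraries. The averages were 188 at rank 10, 138 at rank 50, 118 at rank 100 and 102 at rank 200. At the limit 3 regions shared the height of 92.2, and the one inside, in Ube2v1, a ubiquitin-conjugating enzyme variant gene (chr2:167614411-167615278), was kept by position. The other two were in Gm12149 (chr11:43614057-43614619) and Dip2b (chr15:100182173-100182879), and next came a region in Enah at 92.0 (chr1:181923418-181923997). Above Ube2v1 stood regions near Gm40173 at 92.3 and Gm40653 at 92.5. The limit therefore falls on a slope and not at a gap.

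The libraries differed in overall height, and the members followed them. Their mean height was 125, 143 and 102 in untreated replicates 1, 2 and 3, and 144, 113 and 81.0 in KCl replicates 1, 2 and 3. Group means were 123 ± 20.3 untreated and 113 ± 31.5 with KCl (SD, n = 3 each), and the ranges overlapped. KCl replicate 3 was the lowest library in the members and over all 26850 regions, and it also had the fewest summits, 34834, against 60949 to 93470 in the other libraries. Relative to the mean of all regions in the same library, the members stood 4.04, 4.12 and 3.71 times as high in the untreated libraries and 4.12, 4.23 and 4.25 times with KCl. Read within each library alone, 252 to 269 of the 300 were among that library's own 300 highest. The average that chose the members is made of these same libraries.

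**Figure D1:**
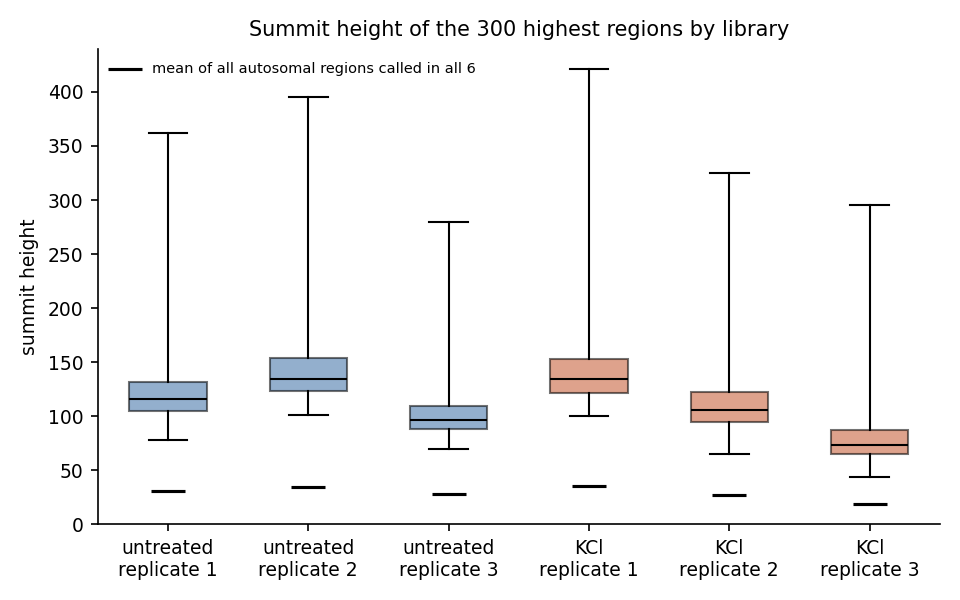
Summit height (deposited value, vertical axis) of the 300 highest regions in each of the 6 libraries. Boxes span the quartiles with the median as a line, whiskers reach the lowest and highest region, and the short black bar under each box is the mean over all 26850 autosomal regions called in 6 libraries. Medians lie between 73 (KCl replicate 3) and 134 (untreated replicate 2 and KCl replicate 1), and untreated and KCl boxes interleave.

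The highest region of all covered Rn18s-rs5, named as a sequence related to 18S ribosomal RNA, and AY036118 on chromosome 17 (chr17:39842872-39848870). Its heights were 362, 395 and 280 untreated and 421, 325 and 295 with KCl. It was also the longest member, at 5999 bp, and its summits were spread over 1328 bp among libraries, the widest spread of any member. The second, over the start of Tmem267 and the neighbouring 3110070M22Rik (chr13:119487671-119489381), the locus of the densest sequence above, reached 287, 322 and 225 untreated and 332, 251 and 212 with KCl. The fourth lay in Sfi1, a gene for a centrin-binding protein, and Gm11400 (chr11:3149394-3151713), at 266, 277 and 210 untreated and 295, 237 and 206 with KCl. In each of these the KCl values as deposited enclosed or crossed the untreated ones, with KCl replicate 1 the highest library.

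Few of the 10 highest regions lay in protein-coding genes: 2 of 10 did, and 6 of 10 lay in no annotated gene. The third was intergenic, 39544 bp from Gm33780 (chr2:98662171-98663055), and had heights of 288, 292 and 225 untreated and 320, 259 and 238 with KCl. The seventh lay just beyond it (chr2:98663584-98664171), at 220, 229 and 169 untreated and 258, 178 and 171 with KCl. The fifth was in the long non-coding RNA gene Gm33838 (chr9:35304985-35305754), at 224, 263 and 205 untreated and 267, 214 and 203 with KCl. The sixth lay 10429 bp from Gm9637 (chr14:19415521-19419738) and was 4218 bp long, with 220, 227 and 180 untreated and 244, 193 and 172 with KCl. The ninth was 58038 bp from Gm5473 (chr15:63572643-63573553), with 205, 216 and 145 untreated and 224, 192 and 156 with KCl. As deposited, untreated and KCl heights overlapped at all 10. With libraries scaled to the same median height, all KCl values lay above all untreated ones at 4 of the 10 and below at 0. These shares were 18% and 0.667% over all members, and 4.67% and 3.89% over all tested regions. How reads of repeated sequence were placed is not given in the sources used here, and its part in these heights was not tested.

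**Figure D2:**
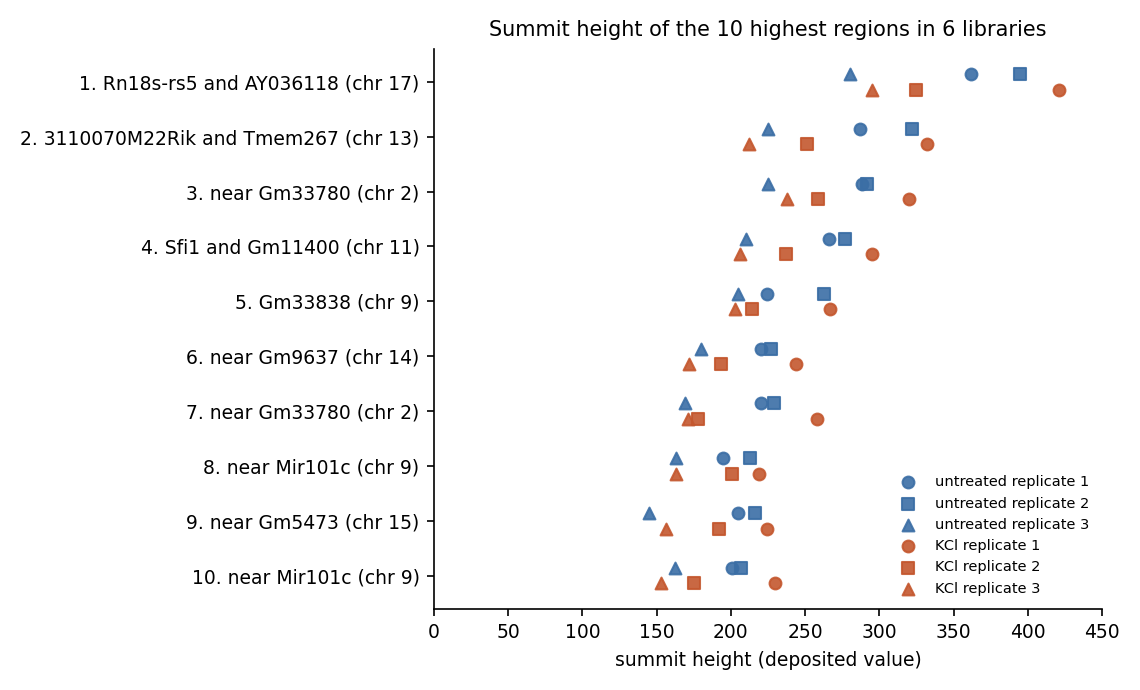
Summit height (deposited value, horizontal axis from 0) of the 10 highest regions, in rank order from the top, in 3 untreated (blue) and 3 KCl (orange) libraries; the marker shape gives the replicate number. The first region stands apart with 280 to 421, replicate 3 is the lowest untreated library at every region shown, and blue and orange points overlap throughout.

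Members lay close together at a few places. When members up to 100 kb apart were joined, the 300 formed 282 loci, of which 272 held a single member, 8 held a pair and 2 held 3 or more. The larger of these was on chromosome 9 (chr9:2999959-3038500), where 9 members lay within 38.5 kb, with Mir101c, a microRNA gene, the nearest annotated gene. They stood at ranks 8, 10, 48, 62, 69, 105, 120, 191 and 269. The eighth-ranked region (chr9:3025005-3027886) had heights of 195, 213 and 163 untreated and 219, 201 and 163 with KCl, and the tenth (chr9:3035627-3036781) had 201, 207 and 162 untreated and 230, 175 and 153 with KCl. The same span held 31 active regions, 18 of them called in all 6 libraries, and the 9 of these that were not members had mean heights from 31.2 to 87.2. Members covered 10.3 kb of the span. Whether its sequence occurs in further copies in the genome was not tested here or at the group on chromosome 2.

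**Figure D3:**
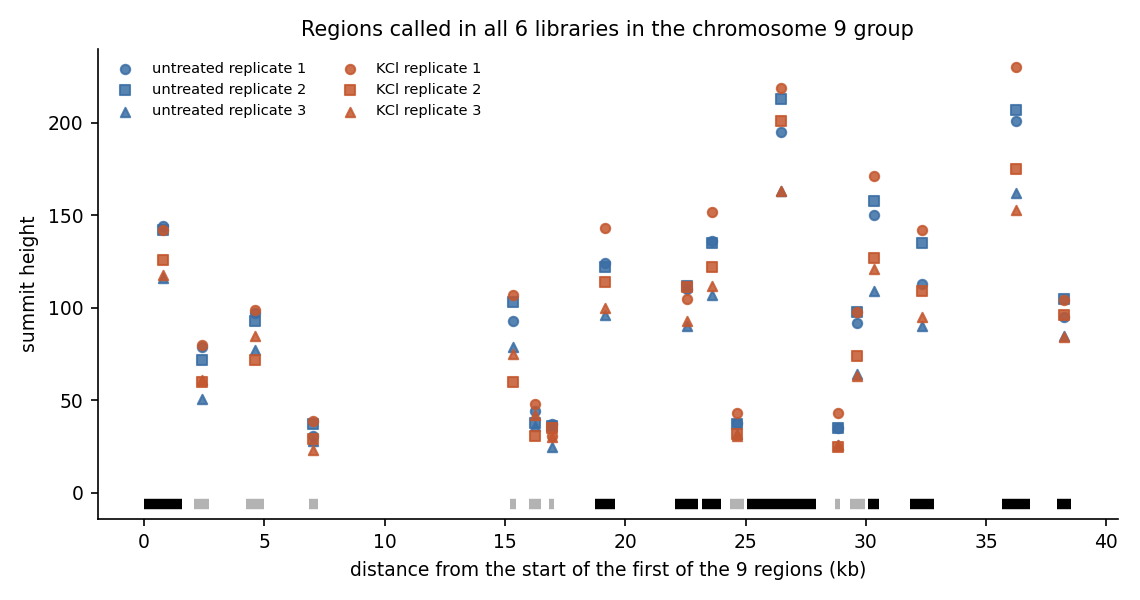
Summit height (deposited value) in each library for the 18 regions called in all 6 libraries in the chromosome 9 group, against distance in kb from the start of the first one. Blue is untreated, orange is KCl, marker shapes give the replicate number, and bars under the points give each region's extent (black for the 9 members, grey for the others). Heights rise and fall between neighbouring regions between means of 31.2 and 192, in much the same order in every library.

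The smaller group was on chromosome 2 (chr2:98662171-98667403), where the regions of rank 3, 7 and 16 lay within 5.23 kb. The third of them, at chr2:98666153-98667403, had heights of 182, 178 and 147 untreated and 189, 166 and 152 with KCl. Among the pairs were 2 regions in Gse1, 2 in Rbm25, an RNA-binding splicing factor gene, and 2 in Ptprr, a receptor phosphatase gene, one of which also held Taf7l2. Further pairs lay in the neighbouring genes Safb and Safb2, in the heart myosin genes Myh6 and Myh7, in Eya2 and Zmynd8, in and near Fam50b, and at the Sfi1 locus. Among chromosomes the share of regions that were members ran from 0.477% on chromosome 4 (9 of 1888) to 1.62% on chromosome 9 (24 of 1484), and it was 1.12% over all autosomes.

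Most members lay inside genes. A gene body was overlapped by 219 of 300 (73.0%), against 66.4% of all autosomal regions called in 6 libraries, and a protein-coding body by 191 (63.7% against 57.0%). Within 1 kb of a gene end lay 49 (16.3% against 12.8%), and 81 were intergenic (27.0% against 33.6%). Regions next in rank had like shares, with a gene body at 69.7% of ranks 301 to 600 and 72.2% of ranks 601 to 1200, and a gene end at 15.3% and 17.5%. Long non-coding RNA genes alone accounted for 21 (7% against 6.99%) and pseudogenes for 9 (3.00% against 2.84%). The promoter windows gave the widest ratio, with 18 members (6.00%) against 408 of all regions (1.52%), and the summit itself fell inside a window at 8 members (2.67%) against 0.588%. In the 300 regions next in rank, 6 (2.00%) overlapped a window, and further down the share was between 1.18% and 2.50%. These shares describe regions, which are not replicates, and carry no test.

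Genes of neuronal function were among those overlapped, and are named as examples chosen after their values were seen. The member in Ank2, encoding an ankyrin that anchors membrane proteins (chr3:127105844-127106609), had heights of 188, 211 and 147 untreated and 207, 174 and 139 with KCl. The sodium channel gene Scn8a (chr15:100895625-100896265) had 125, 142 and 95 untreated and 155, 118 and 78 with KCl. Camk2b, a subunit gene of calcium/calmodulin-dependent kinase II (chr11:5971917-5972668), had 104, 128 and 89 untreated and 132, 105 and 68 with KCl. In each of these genes the heights of the groups overlapped as deposited, with KCl replicate 3 the lowest library. Members covered parts of 242 genes in all, 201 of them protein-coding.

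Gene lists placed the members further. Of 50 germline genes, 33 had a region called in all 6 libraries in the body or within 1 kb of an end, and 5 had a member. Those 5 members were among 48 regions of the list (10.4%), where 1.12% of all regions were members. Among the 408 regions over a promoter window, where 4 of these 5 lay, 18 were members. The list was chosen with earlier results of these data known, so its share is a description only. Dazl, at rank 42 (chr17:50293063-50294077), had heights of 153, 186 and 120 untreated and 171, 134 and 94 with KCl. Sycp2, at rank 44 (chr2:178406980-178407827), had 156, 169 and 109 untreated and 185, 128 and 97 with KCl, and its summit lay 306 bp from the transcription start, outside the window shown above. Hormad1, at rank 236 (chr3:95559349-95560090), had 102, 134 and 83 untreated and 120, 84 and 65 with KCl. D1Pas1 held a member at rank 255 (chr1:186967055-186969057), with 102, 122 and 94 untreated and 113, 89 and 57 with KCl. Spo11, the enzyme that cuts DNA to start meiotic recombination, held one at rank 262 (chr2:172979697-172980347), with 105, 122 and 78 untreated and 119, 93 and 55 with KCl. Of the 5, all but Spo11 overlapped a promoter window. The groups overlapped at each, as deposited and with libraries scaled to the same median height.

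Further genes with germ-cell roles outside the list were noticed after the values were seen. Hsf5 stood at rank 32 (chr11:87616764-87618067), with heights of 178, 191 and 115 untreated and 182, 145 and 86 with KCl. Tex12, whose region also overlaps the cytokine gene Il18, stood at rank 35 (chr9:50560572-50561583), with 146, 179 and 131 untreated and 177, 152 and 103 with KCl. Taf7l2, Catsper2, a sperm cation channel gene, Odf1, a sperm tail protein gene, and Nlrp5, a maternal-effect gene of the oocyte, were at ranks 193, 192, 256 and 274. No share of such genes is given, because they were picked by eye.

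Of the 11 lists, 8 held no member. None of the 76 regions of imprinted genes was a member, although 36 of 53 such genes on autosomes had a region called in all 6 libraries, and neither was any of the 41 regions of homeobox and developmental regulators (17 of 62 genes). The same held for pluripotency genes (11 regions), genes induced by neuronal activity (16), the DNA methylation machinery (22), and markers of astrocytes (5), microglia (7) and endothelial and mesenchymal cells (14). Among 22 regions of neuron markers 1 was a member, in Bcl11b, a transcription factor gene of cortical and hippocampal neurons (chr12:107915169-107917724), with 141, 166 and 116 untreated and 158, 122 and 87 with KCl. Among 14 regions of oligodendrocyte markers 1 was a member, in the myelin gene Mobp (chr9:120174015-120174661), with 119, 147 and 106 untreated and 156, 120 and 75 with KCl. With members at 1.12% of all regions, a count of 0 or 1 in lists of this size says little about any list. Of gene families by symbol, zinc finger genes (Zfp) held 6 members (2.00% against 0.980% of all regions), while olfactory receptor, vomeronasal receptor and ribosomal protein genes held 0 members out of 26, 18 and 43 regions.

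The members were longer than the other regions. Their length was a median of 702 bp (quartiles 603 to 929), against 492 bp for all, and 65 of 300 (21.7%) reached 1 kb, against 2.62%. After the top-ranked region the longest were in Plec, a cytoskeletal linker gene, at 5622 bp (chr15:76176370-76181991), at 4506 bp on chromosome 11 (chr11:3100029-3104534), at 4218 bp for the sixth-ranked region and at 2965 bp in the zinc finger gene Zfp865 (chr7:5029238-5032202). Several intervals of 1 library were joined in 33 members (11.0%), against 6.49%. A longer region offers more summits from which the highest is taken, so length is not independent of the rule.

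Summits also stood at nearly the same base in every library. The distance between the outermost of the 6 summits was a median of 32 bp in members and 48 bp in all regions, and it was at most 50 bp in 81.0% against 57.9%. Summits sat on steps of 16 bp in the deposited tracks, so these values are a few steps. The 300 regions next in rank were at 86.3%, so agreement of position did not peak in the highest regions. With each library scaled to the same median height, the coefficient of variation (CV) within a group was a median of 0.0845 in members, 0.0900 in the next 300 and 0.160 over all. As deposited it was 0.232 in members, so most of their spread between libraries went with the overall height of each library.

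**Figure D4:**
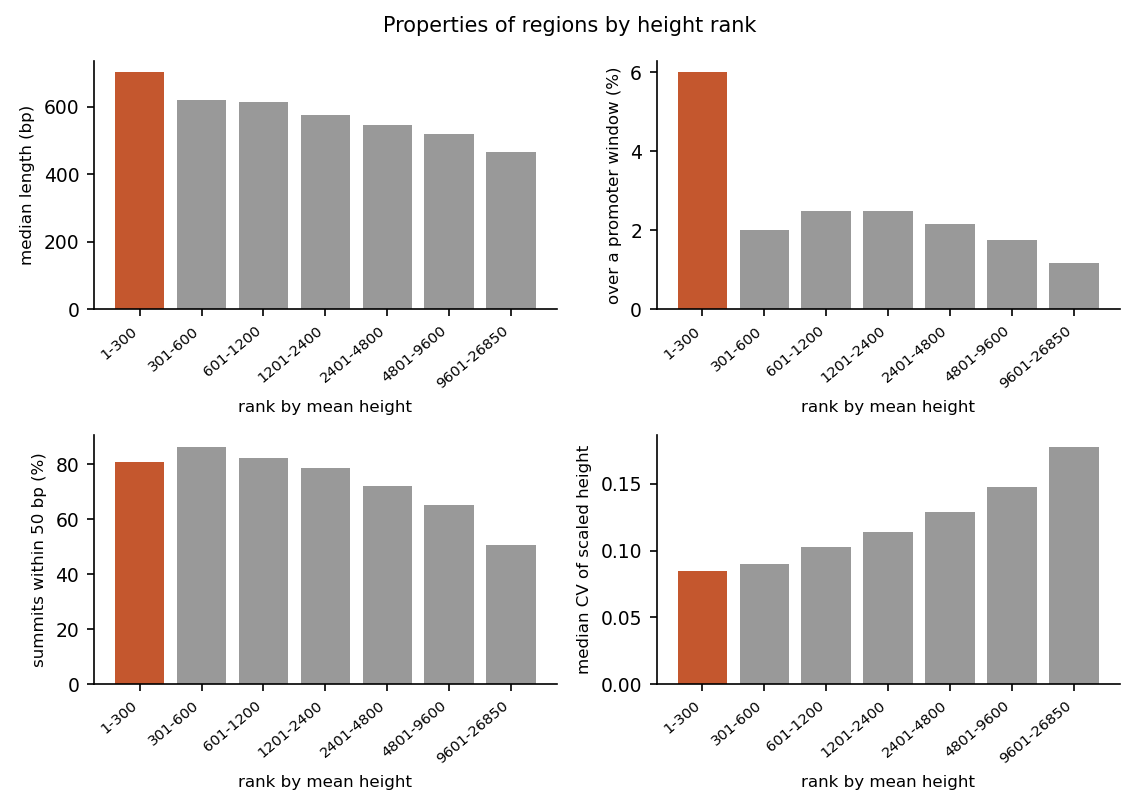
Properties of regions called in all 6 libraries by rank of mean height, with the 300 highest in orange and lower ranks in grey: median length in bp, share of regions over a promoter window in percent, share of regions with all 6 summits within 50 bp in percent, and median CV of scaled height within groups. All axes start at 0. Length falls from 702 bp and CV rises from 0.0845 down the ranks, while the promoter share drops from 6.00% to 2.00% at the first step.

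Members differed in how well libraries agreed. The lowest CV was at an intergenic region 14160 bp from Gm46301 (chr11:112845936-112846717; CV 0.0196), followed by members in 4930429H19Rik, Upf3a, Itsn1 and Map1b, the last a microtubule protein gene of growing axons (CV 0.0274). The highest was in Ube2v1 (CV 0.203), with heights of 84, 119 and 112 untreated and 100, 65 and 73 with KCl, so that untreated replicate 1 was the lowest of its group and KCl replicate 1 the highest. A region near Gm26331, Acin1 and 4930563M20Rik were also among the highest. Farthest from a gene were regions 205107 bp from Gm18443 (chr1:26202266-26202869; mean height 115), 125501 bp from Gm18610 (chr19:18079191-18079665; 96.8), 108898 bp from Gm8797 (chr3:5860193-5860922; 133), 107260 bp from the NMDA receptor gene Grin2a (chr16:9460042-9460641; 110) and 86980 bp from Gm42016 (chr5:119417506-119418114; 107). Heights at these remote regions lay on both sides of the members' median of 109.

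The comparison with KCl asks which regions gain or lose 5mC after neuronal activity. No member passed the test: 0 of 300 were higher and 0 lower with KCl by limma on log2(height + 1) with Benjamini-Hochberg adjustment over 20537 regions, sex chromosomes included (adjusted p under 0.05; 0% of all tested regions passed). The lowest adjusted p of a member was 0.932. At an unadjusted p under 0.05 the count was also 0 in members, against 0 higher and 231 lower (1.12%) over all. On heights as deposited no member had all KCl values above or all below the untreated ones (0 and 0, against 0.0292% and 4.14% of all tested regions). As deposited, 284 of 300 members were lower with KCl and 16 higher, where 90.6% of all tested regions were lower. The median log2 change was -0.25 over all tested regions and -0.16 over the members. This common shift moved with single libraries, since it was -0.02 when KCl replicate 3 was left out and -0.46 when KCl replicate 1 was left out.

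Measured against the median region, the members stood slightly higher with KCl. Their relative log2 change, which is the change minus the median of all tested regions, had a median of 0.09 (quartiles 0.02 to 0.15, range -0.19 to 0.30). It was above 0 in 235 of 300 (50% of all regions by construction). The 300 regions next in rank had a median of 0.04 with 67.0% above 0, and further down medians lay between -0.02 and 0.01. After median centring no member passed either (0 higher, 0 lower; lowest adjusted p in limma 1.00). At an unadjusted p under 0.05, 34 members were higher and 0 lower (11.3% and 0%), against 2.1% and 1.35% of all tested regions. With the replicate block, which compares libraries of the same number, the counts were 57 and 0, against 3.02% and 2.13%. Without untreated replicate 3 and without the block these counts were 6 and 1, against 294 higher and 417 lower of 21123 regions tested then. Without any other single library 24 to 40 members were higher. Over all tested regions the count higher then ran from 291 of 20895 (without untreated replicate 1) to 1020 of 31004 (without KCl replicate 3). With libraries scaled to the same median height, all KCl values lay above all untreated ones at 54 members (18.0%) and below at 2 (0.667%), against 4.67% and 3.89% over all. In the 300 regions next in rank these shares were 9.33% and 1.67%, and in ranks 601 to 1200 they were 5.17% and 1.83%. Members share the same 6 libraries, so counts of members are not counts of replicates. The ratio of members to all regions was higher with KCl at each replicate number, at 4.04 and 4.12, 4.12 and 4.23, and 3.71 and 4.25. The widest of these steps was at untreated replicate 3, without which the median relative change was 0.04. Whether equal numbers mark true pairs is not in the labels. Without them the groups overlapped, with untreated replicate 2 at 4.118 and KCl replicate 1 at 4.116. The members' median log2 height after centring was 2.12, 2.17 and 1.96 untreated and 2.17, 2.22 and 2.12 with KCl. Its pooled SD within groups was 0.086, close to the median relative change of 0.09.

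**Figure D5:**
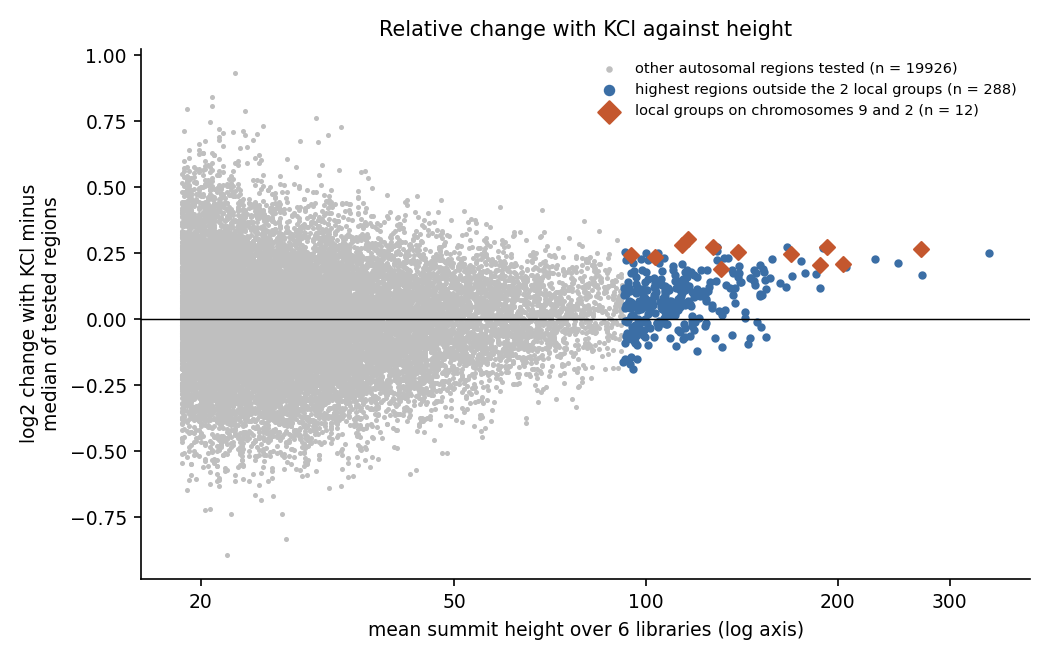
Relative log2 change with KCl (change in log2(height + 1) minus the median over all tested regions) against mean summit height on a log axis, for autosomal regions tested. Grey points are other regions, blue points are members and orange diamonds are the 12 members of the groups on chromosomes 9 and 2. The cloud narrows with height, members run from -0.19 to 0.30, and all diamonds lie between 0.19 and 0.30.

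The upward shift was widest among the highest and the intergenic members. All of the 10 highest regions were above the median region, by 0.17 to 0.28, and by 0.08 to 0.17 without KCl replicate 3. The 9 members of the chromosome 9 group ran from 0.19 to 0.30 and the 3 on chromosome 2 from 0.21 to 0.27. Without KCl replicate 3 these 12 ran from 0.02 to 0.19. Outside these groups 223 of 288 members were above 0, with a median of 0.08. Intergenic members had a median of 0.12 with 71 of 81 above 0, and members in gene bodies 0.07 with 164 of 219. Without untreated replicate 3 these medians were 0.09 and 0.02. These classes overlap, since some of the 10 highest lie in the local groups, whose 12 members are all intergenic. Intergenic members outside those groups had a median of 0.11 with 59 of 69 above 0. Differences between these classes were not tested.

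On heights as deposited, the lowest p among members with a higher height belonged to regions at ranks 105 and 120 of the chromosome 9 group (relative log2 change 0.30 and 0.28), at rank 8 there (0.28), at rank 17, 8552 bp from Mug-ps1 (chr6:122257118-122257908; 0.27), and at rank 66, 22124 bp from Gm7167 (chr15:91105914-91106601; 0.28). Their adjusted p in limma ranged from 0.970 to 0.985. After centring the lowest p belonged to ranks 1, 3, 8 and 9, all at an adjusted p of 1.00 in limma. At rank 105 (chr9:3018700-3019552) the heights were 124, 122 and 96 untreated and 143, 114 and 100 with KCl, which overlapped as deposited. With libraries scaled to the same median height, all KCl values at rank 105 lay above all untreated ones. Among those with a lower height were Gm21927 (-0.19; limma SE after centring 0.13), Gm32319 (-0.17), Ube2v1 (-0.16) and Kank1 (-0.15), all at an adjusted p of 0.932 in limma as deposited. Without KCl replicate 3 the change was -0.02 in Gm21927, -0.04 in Gm32319 and -0.03 in Kank1. In Ube2v1 it was -0.34 without KCl replicate 3, -0.31 without untreated replicate 1, and -0.02 without KCl replicate 2 or untreated replicate 3. In the neuronal genes above the relative change was 0.17 (limma SE after centring 0.10) in Ank2, 0.17 in Scn8a and 0.14 in Camk2b. They were picked after their values were seen, and a channel gene given further below, Kcnh1, stood lower. They are thus no set to compare with the germline genes. The germline genes stood at 0.03 in Dazl, 0.14 in Sycp2, -0.01 in Hormad1, -0.09 in D1Pas1 and 0.01 in Spo11. None of these passed the threshold as deposited or after centring.

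The error of a change fell with height. The median limma SE of a log2 change was 0.33 in members against 0.36 over all as deposited. After centring it was 0.12 in members, 0.13 in the next 300 and 0.21 over all, and the 95% interval then reached 0.23 to either side in members against 0.42 over all. In simulated heights run through the same fit, no region changed by 1.5-fold was recovered as deposited and 11.9% after centring. At 2-fold 14.9% and 74.6% were recovered, and at 4-fold 98.5% and 100%. There were 0 false calls as deposited and 5 after centring. The changed regions were drawn from the tallest simulated regions, so these shares do not cover regions of all heights. Nor do they describe the members alone. The simulated noise was set beforehand and was not matched to the members. How large a change could be detected in the members was therefore not shown. In the simulation itself, most changes of 1.5-fold were missed.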

How the data were processed

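MeDIP-seq libraries of 3 untreated and 3 KCl samples were used. Reads were processed by a service company, per the labels' protocols, and per the submitters' processing notes BWA and SICER were used with mm10 (versions not stated). The deposited tracks hold intervals and, for each, a summit height in a unit that is not stated, with no read totals. The depth per library is thus unknown, and no source used here states read filters or scaling between libraries. Coordinates are 1-based.

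Gene bodies and promoter windows came from RefSeq tables of GRCm38.p6. Of the gene names on the lists, all but 1 imprinted gene were matched. KCl was compared with untreated over the 27310 regions called in all 6 libraries by limma 3.58.1 (R 4.3.3) on log2(height + 1) with a variance trend, two-sided, for the 20537 regions with a mean height of at least 18.7 (25th percentile). Members passed the filter through their own height. The p-values measure the spread between libraries, which may be technical. The fit was tested on simulated data of 27310 regions.

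Members and lists were chosen with earlier results of these data known. The text names the 10 highest members, those at the limit, the 5 with the lowest p in each direction, the members in listed genes, the longest, the most remote, the local groups, and those of highest and lowest CV. A few of these are not reported here. The labels give both groups the same replicate numbers. Deviations of same-numbered libraries from their group means correlated at 0.11, 0.11 and 0.15 across regions and those of other pairs at -0.09 to -0.02. Deviations within a group sum to 0, so the negative values of other pairs are partly built in. The numbers were taken as pairs in an alternative with a replicate block, and the main fit left the pairing out. Other alternatives were median centring, no filter, a pseudocount of 5, leaving out each library, and member sets of 150 and 600 regions.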

Additional observations from a re-analysis of the deposited data

How the results depend on the processing

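No region passed the test of KCl against untreated under any of the 11 alternatives fitted (median centring, no filter, pseudocount of 5, replicate block, centring with the block, and each library left out), so the count of members called was 0 throughout. The replicate block, which uses the pairing of library numbers, changed no call: 0 of 20537 regions passed with it, and the lowest adjusted p of a member in limma was 0.857, or 0.354 with centring as well. It raised the members that were higher at an unadjusted p under 0.05 in limma after centring from 34 to 57. Over all tested regions it also raised the share higher, from 2.1% to 3.02%, and the share lower, from 1.35% to 2.13%. The median relative change of the members lay between 0.04 (without untreated replicate 3) and 0.12 (without untreated replicate 2) with single libraries left out, and at 0.07 without filter, 0.06 with a pseudocount of 5 and 0.08 without the 12 members of the local groups on chromosomes 9 and 2, an alternative chosen after seeing the data. The difference of mean member height, KCl minus untreated, was -10.6 as deposited and 9.62 with libraries scaled to the same median height. With single libraries left out it ran from -26.2 (without KCl replicate 1) to 5.24 (without KCl replicate 3), so its sign depends on scaling and on KCl replicate 3. The share of members near a gene end was 38.3% when 5 kb was used in place of 1 kb, by the width of the window alone. Median length was 759 bp in the 150 highest regions and 653 bp in the 600 highest. The CV was 0.232 on heights as deposited. Gene body share, summit spread and CV moved by less than their spread in the other alternatives. Choosing members without 1 library kept 289 to 294 of the 300, and choosing them on scaled heights kept 297. Depth is unknown, so no counting interval could be given, and regions missed in any library were outside the comparison.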

Other observations

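Genes of ion channels and transmitter receptors held members that were noticed after the values were seen. Among potassium channel genes, Kcna6 had a mean height of 118 ± 26.2 untreated and 113 ± 28.8 with KCl, Kcnh1 130 ± 21.5 and 108 ± 25, Kcnk2 104 ± 15.7 and 95 ± 27.8, and Kcnj4 97.0 ± 13.1 and 89.7 ± 20.6 (SD, n = 3 each). The calcium channel gene Cacna1e had 123 ± 23.0 untreated and 113 ± 31.8 with KCl, and Cacng2, an auxiliary subunit gene of AMPA receptors, 119 ± 18.1 and 103 ± 30.9. The metabotropic glutamate receptor genes Grm3 and Grm6 had 99 ± 13 and 98 ± 7.55 untreated, and 86.3 ± 31.6 and 88.3 ± 26.1 with KCl. The nicotinic receptor gene Chrna4 had 104 ± 21.9 untreated and 97.3 ± 18.1 with KCl. In all of these genes the group means lay closer together than 1 SD of the KCl group. By the untreated SD this did not hold in all, as in Grm6. The KCl SD also holds the overall height of each library, so this closeness says little about a difference. For the mean height of all members the KCl SD was 31.5 as deposited and 2.07 with libraries scaled to the same median height. The relative log2 changes of these genes ran from -0.04 in Kcnh1 to 0.18 in Kcna6. No share of such genes among the members was computed, since they were picked from the values.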
